A study of Mus musculus with 6 samples.

Results

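Nmral1 and 9 antioxidant genes were followed in lineage-negative, Sca-1-positive, c-Kit-positive (LSK) cells of mouse marrow, a sorted fraction rich in haematopoietic stem and early progenitor cells. The 10 genes were taken by symbol from the 48395 symbols counted by RNA sequencing, and all 10 were among the 16739 genes with enough reads to be tested. Nmral1 was included because it had been seen higher in these same libraries under the Hmga2 label. The others were listed by function: Txnip, Txn1 and Txnrd1 of the thioredoxin system, the peroxiredoxins Prdx1 and Prdx2, the superoxide dismutases Sod1 and Sod2, catalase (Cat) and the glutathione peroxidase Gpx1.

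Cells make superoxide and hydrogen peroxide as by-products of respiration and as products of oxidases. Superoxide dismutases turn superoxide into hydrogen peroxide, which catalase, glutathione peroxidases and peroxiredoxins then remove. Peroxiredoxins are recharged by thioredoxin, which is recharged by thioredoxin reductase with electrons from NADPH. Haematopoietic stem cells are known to lose quiescence when reactive oxygen rises, and the FoxO factors and the kinase Atm are known to hold it down.

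The 6 libraries came from 3 LSK samples labelled Hmga2 and 3 labelled vector, each described as a biological replicate. Donor marrow of both groups carried Mx1Cre and Jak2VF/+, an activating allele of the kinase that relays erythropoietin and thrombopoietin signals, and was primed with 5-fluorouracil. It was transduced with lentivirus carrying Hmga2 or the vector alone and given to C57BL/6 mice irradiated in 2 rounds of 550 cGy. LSK cells were sorted 32 weeks later; no marker of transduction is named for the sort, so cells that escaped the virus, and cells of the host, may be among them. Mx1 is an interferon-inducible promoter, and neither wild-type Jak2 nor untransduced marrow was analysed here. The sort gene Kit was present at 345 to 375 CPM under the Hmga2 label and at 248 to 354 CPM in vector libraries, and the stem and progenitor marker Cd34 averaged 729 ± 57.8 CPM there and 635 ± 115 CPM in vector libraries (SD, n = 3 each). Ly6a, which encodes Sca-1, averaged 37.0 ± 7.41 CPM under the Hmga2 label and 43.3 ± 21.1 CPM in vector libraries. The 9 markers of the LSK list summed to 1516 to 1583 CPM under the Hmga2 label and to 1201 to 1363 CPM in vector libraries, with 7 higher and 2 lower, and their part in the values below was not tested. CPM is the count of a gene scaled to a common library total, here adjusted between libraries by the TMM method.

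Total counts per library were between 24818011 and 35471806. The level of Hmga2 itself, by replicate, was 2.63, 6.63 and 5.92 CPM under its own label, against 5.96, 5.04 and 7.03 CPM in vector libraries. Whether reads of the lentiviral Hmga2 were counted under this symbol is not known from the sources used here, so these levels do not show whether it was expressed. Because the label is not borne out by these counts, all directions below belong to the libraries under the Hmga2 label and not to an action of Hmga2. Of other cell types, the summed level of 12 erythroid markers was 1139 to 1714 CPM under the Hmga2 label and 1671 to 2203 CPM in vector libraries, with 9 of the 12 lower. The 12 granulocyte markers summed to 3011 to 4892 CPM and to 4438 to 9416 CPM, all 12 lower under the Hmga2 label. The 8 plasma and B cell markers summed to 475 to 4424 CPM under the Hmga2 label and to 618 to 13610 CPM in vector libraries, all 8 lower. No marker of these 3 lists was at 0 in all libraries, 0 of them passed in edgeR, and their part in the values below was not tested. The 5 megakaryocyte markers were all higher under the Hmga2 label, with overlapping sums of 584 to 789 and 477 to 804 CPM (labelled Hmga2, then vector). All 4 monocyte markers and all 4 tested glia markers were lower, while mast cell and stroma markers went both ways. The part of these cell types was not tested either. Igha, an immunoglobulin heavy chain gene, exceeded 1000 CPM in Hmga2 replicate 2 and in vector replicates 1 and 3. Summed Y-linked transcripts were at 191, 5.33 and 129 CPM under the Hmga2 label and at 6.73, 21.4 and 5.24 CPM in vector libraries, so a high Y-linked level occurred under the Hmga2 label only.

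Nmral1 encodes a protein of the NmrA-like family that binds NADP and NADPH and changes its shape and partners with their ratio; the human protein is known as a redox sensor. Its gene lies on chromosome 16, positions 4710059 to 4719356 of mm10, on the minus strand. It was at 101, 79.3 and 88.7 CPM under the Hmga2 label, against 54.4, 51.9 and 61.0 CPM in vector libraries. All 3 values under the Hmga2 label exceed all of the vector values. The estimated fold was 1.61, a log2 fold change of 0.69. No test is given for it, since this contrast chose the gene. These levels rest on 1349 to 3574 reads a library. In the immunoglobulin-rich libraries, Hmga2 replicate 2 was at 79.3 CPM, against a mean of 57.7 CPM in vector replicates 1 and 3. In the others the level averaged 94.9 CPM in Hmga2 replicates 1 and 3 against 51.9 CPM in vector replicate 2. Each of these has 1 library on a side. As the groups are apart, any such split has the libraries labelled Hmga2 higher, and nothing is read from it. Hmga2 replicate 2, with a Y-linked sum as low as in vector libraries, was the lowest of its group, and the log2 fold change was 0.51 with a term for the libraries rich in Y-linked transcripts. As no vector library is rich in them, that value rests on Hmga2 replicate 2 alone against the 3 vector libraries, and the Y-linked level and the label cannot be told apart in the other libraries labelled Hmga2.

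**Figure D1:**
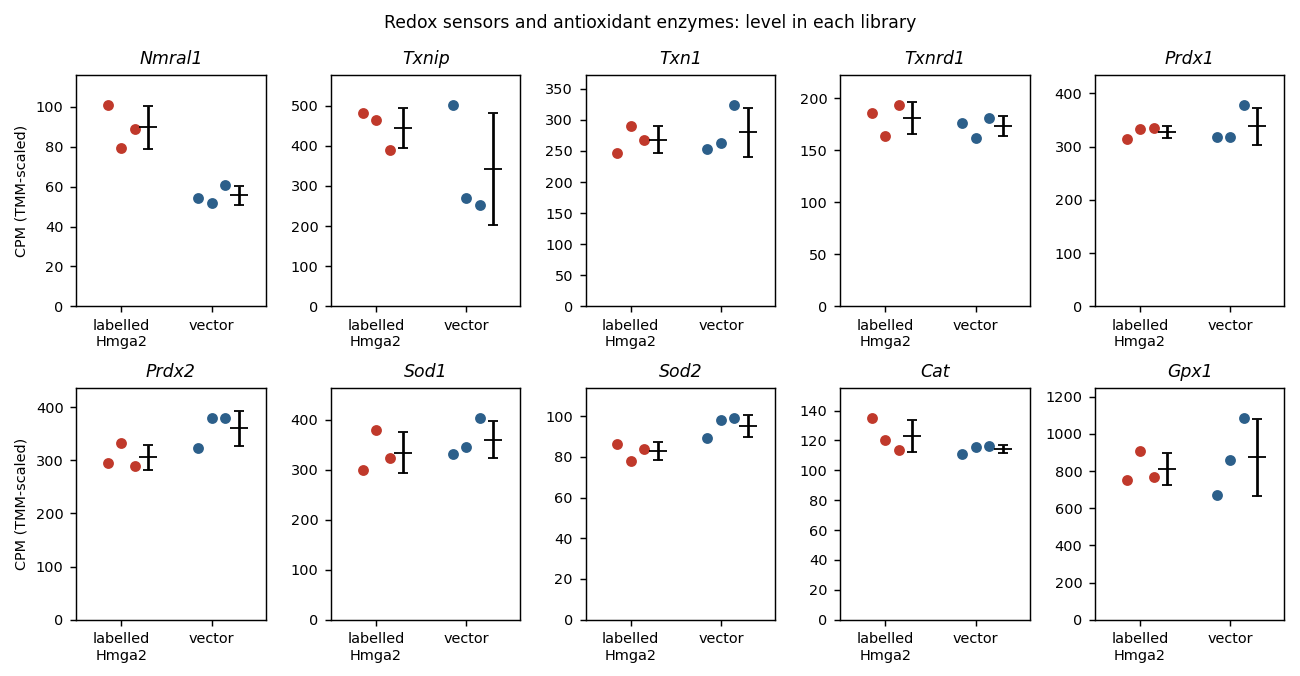
Level of each of the 10 genes in every library, in TMM-scaled CPM on a linear axis from 0; coloured points are libraries, labelled Hmga2 left and vector right, and black bars are means with SD (n = 3 each). The groups are apart for Nmral1, where the libraries labelled Hmga2 sit at 79.3 to 101 CPM and vector libraries at 51.9 to 61.0 CPM, and for Sod2 with the reverse order; the other 8 genes overlap.

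Of the counted genes nearest to Nmral1 on either side, none had groups apart. The nearest counted gene, Dnaja3, which encodes a mitochondrial co-chaperone and ends 2363 bases from Nmral1, averaged 89.8 ± 6.85 CPM under the Hmga2 label and 96.8 ± 4.48 CPM in vector libraries (SD, n = 3 each). On the other side Hmox2, the constitutive haem oxygenase, averaged 85.1 ± 3.98 CPM and 83.0 ± 11.5 CPM in the same order of groups. Coro7, a coronin of the Golgi, had a log2 fold change of 0.08, and the antisense transcript Gm15859 stayed under 1 CPM on average in both groups. All 4 had overlapping groups, with adjusted p from 0.865 to 0.981 in edgeR.

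By Pearson correlation of log2 CPM over the 6 libraries, the genes most like Nmral1 among 11632 with a mean of at least 5 CPM were Stat3, Zfp286, Aff3, Lasp1 and Layn, with r from 0.982 to 0.996. With 6 points that share 1 contrast, 28 genes reached 0.95, and the values are a description only. Stat3, a transcription factor phosphorylated by Jak2, was at 228, 213 and 224 CPM under the Hmga2 label, against 196, 191 and 199 CPM in vector libraries. Aff3, encoding a nuclear protein of the AF4 family, was at 170, 133 and 154 CPM against 100.3, 95.1 and 118 CPM in vector libraries. In each of the 5 the groups were apart with the libraries labelled Hmga2 higher, which the choice by likeness to Nmral1 brings with it and from which nothing is read.

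Of the 9 genes listed by function, 0 passed in edgeR's quasi-likelihood test at an adjusted p of 0.05, beside 0% of all 16739 genes. DESeq2 also called 0 of the 9, beside 0.424% of all genes. An unadjusted p under 0.05 was reached by 2 of them, Prdx2 and Sod2, beside 5.59% of all genes. Estimates were higher under the Hmga2 label for 3 (Txnip, Txnrd1 and Cat) and lower for 6. The groups were apart for 1 of the 9, Sod2, which was lower, beside 11.2% of all genes in either direction and 5.88% with the libraries labelled Hmga2 lower.

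**Figure D2:**
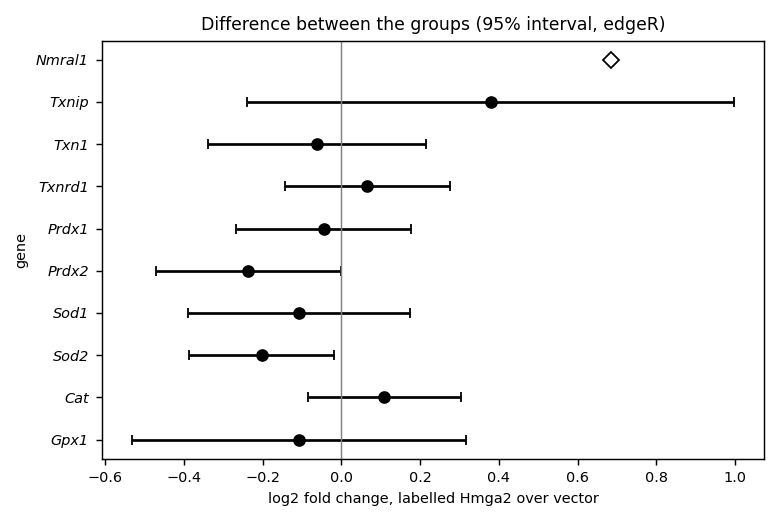
Log2 fold change of each gene, labelled Hmga2 over vector, with its 95% interval from the edgeR fit; Nmral1, chosen on this contrast, is an open diamond without an interval. Most intervals include 0; those of Prdx2 (-0.47 to 0.00) and Sod2 (-0.39 to -0.02) end just below it before adjustment.

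Txnip encodes an arrestin-fold protein that binds reduced thioredoxin, holds back its activity and limits glucose uptake. Its transcript varied more between replicates than that of any of the other 9 genes. It was at 481, 464 and 388 CPM under the Hmga2 label, against 502, 269.8 and 253 CPM in vector libraries. Vector replicate 1 was the highest of all 6 libraries, and the other vector libraries lay below every library labelled Hmga2. The log2 fold change was 0.38 with an interval of -0.24 to 1.00 (adjusted p = 0.858, edgeR). Without vector replicate 1 it was 0.76 (adjusted p = 0.424, edgeR, the lowest of 14 alternatives, which reached 0.9997), and without vector replicate 3 it was 0.205. Txnip's biological coefficient of variation, edgeR's measure of spread between replicates, was 0.232, against 0.135 for genes of similar level. Among the 10 genes it exceeded that trend in Txnip and Gpx1, and lay below it in the other 8.

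The start of Txnip is shown because it holds a sequence known to tie this gene to glucose. Its promoter is a textbook target of the sugar-sensing partners MondoA (Mlxip) or ChREBP (Mlxipl) with Mlx, which bind a tandem pair of E-box-like sites, and of FoxO factors. The window runs from 250 bases before the annotated start to 50 after, at chr3:96557707-96558006 on the plus strand, from RefSeq on the GRCm38.p6 build. Capitals mark, in order, a FoxO core (GTAAACA) and a tandem pair (CACGNG, any 5 bases, and CACGNG again).
Txnip: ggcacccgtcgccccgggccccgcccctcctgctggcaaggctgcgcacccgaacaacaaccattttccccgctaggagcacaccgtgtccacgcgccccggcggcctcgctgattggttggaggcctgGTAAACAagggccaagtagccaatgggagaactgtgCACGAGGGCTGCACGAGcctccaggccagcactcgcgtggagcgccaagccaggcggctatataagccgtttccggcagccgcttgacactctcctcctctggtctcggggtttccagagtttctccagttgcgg
Counting the start base as 0, the core lies at -121 to -115 and the tandem pair at -85 to -69, both on the strand of the gene. Over both strands, the tandem pair was found in 16 of 32851 promoter windows of the same length, or 0.0487%, and the FoxO core in 3.65%. Windows were found for 9 of the 10 genes, all but Nmral1, with 11 windows in all because Txnrd1 has several starts; among those 11 only the Txnip window held either sequence. The antisense gene Gm15441 covers Txnip whole and had 11 to 43 reads a library, against at least 6048 for Txnip.

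Genes around Txnip were set beside it. Of 11 regulators, arrestin paralogs and glucose-linked genes, 9 were tested, 6 with a higher and 3 with a lower estimate (median log2 fold change 0.11, beside 0.00 over all genes), and 0 passed in edgeR or DESeq2. The arrestin paralog Arrdc4 was at 31.3, 26.2 and 31.3 CPM under the Hmga2 label, against 29.0, 22.1 and 17.1 CPM in vector libraries. Arrdc3, another paralog, was at 20.9, 20.9 and 14.6 CPM against 16.6, 14.7 and 11.6 CPM in vector libraries. Like Txnip, both were highest of the vector group in replicate 1 and lowest in replicate 3. That order also occurred outside this list, as in Kit (354, 296 and 248 CPM) and Atm (36.5, 32.8 and 23.8 CPM). It is therefore not particular to Txnip, Arrdc3 and Arrdc4. The other tested paralogs did not have that order. In vector libraries Arrdc1 was at 92.9, 99.5 and 90.7 CPM and Arrdc2 at 13.1, 16.0 and 17.0 CPM. Mlx, the binding partner, averaged 31.9 ± 1.57 CPM under the Hmga2 label and 38.0 ± 4.39 CPM in vector libraries (SD, n = 3 each; adjusted p = 0.855, edgeR). Groups were apart for 1 of the 9 tested genes, Mlx, which was lower, beside 5.88% of all genes. Mlxipl, with 2 to 19 reads, and Arrdc5, with 0, were too low to test.

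**Figure D3:**
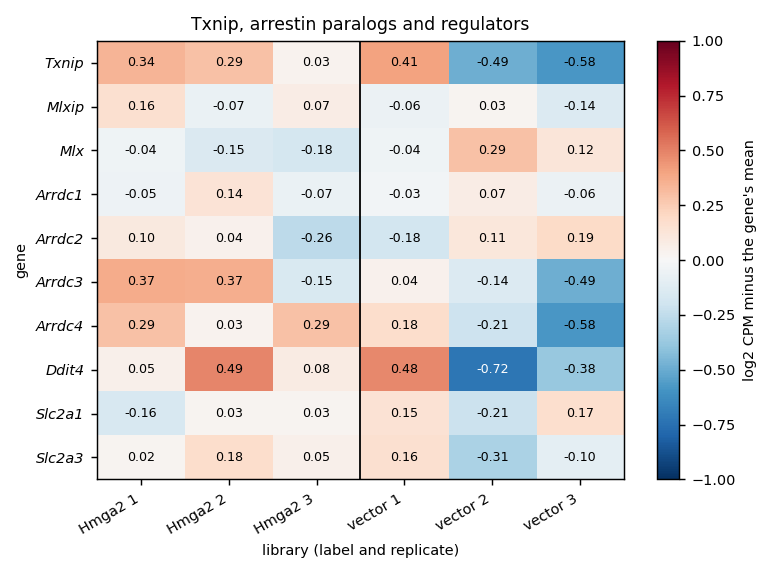
Log2 CPM of Txnip and of the 9 tested genes of its list in each library, minus the mean of that gene over the 6 libraries; red is above and blue below, with libraries labelled Hmga2 left of the line. Txnip, Arrdc3 and Arrdc4 have their lowest vector value in replicate 3, at -0.58 for Txnip, as do Mlxip and Arrdc1.

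Txn1, cytosolic thioredoxin, is the small disulphide-reducing protein that Txnip binds. It was at 247, 290 and 268 CPM under the Hmga2 label, against 253, 262 and 324 CPM in vector libraries. The groups overlapped in part, with the lowest value under the Hmga2 label and the highest in a vector library, and the log2 fold change of -0.06 had an interval from -0.34 to 0.22 (adjusted p = 0.9498, edgeR). The sign turned without vector replicate 3, to 0.06. Read for read, Txnip exceeded Txn1 1.95, 1.601 and 1.45 times in the libraries labelled Hmga2 and 1.99, 1.03 and 0.781 times in vector libraries, a scale that does not correct for transcript length. The log2 ratio averaged 0.73 ± 0.22 and 0.23 ± 0.69 (SD, n = 3 each), a difference of 0.50 (exact two-sided permutation p = 0.4; this design cannot go below 0.1). Without vector replicate 1 the difference was 0.89, and without vector replicate 3 it was 0.21.

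Txnrd1, the cytosolic thioredoxin reductase and a selenoprotein, was at 186, 164 and 194 CPM under the Hmga2 label, against 177, 162 and 181 CPM in vector libraries. Its log2 fold change of 0.07 had an interval from -0.14 to 0.27 (adjusted p = 0.932, edgeR). The groups covered nearly the same range.

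Of the 9 genes with a promoter window, Txnrd1, Prdx1 and Sod1 held the core of the antioxidant response element (TGACNNNGC). It is the site through which NRF2 with small Maf proteins raises antioxidant genes. The element is shown in capitals in 60 bases of each window; all 3 lie on the strand opposite to the gene, so the capitals read as the reverse complement of the core. For Prdx1 the stretch is chr4:116685440-116685499, for Txnrd1 chr10:82859088-82859147 and for Sod1 chr16:90220680-90220739, each printed on the plus strand from RefSeq on GRCm38.p6.
Prdx1: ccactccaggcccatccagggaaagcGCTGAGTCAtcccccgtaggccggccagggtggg
Txnrd1: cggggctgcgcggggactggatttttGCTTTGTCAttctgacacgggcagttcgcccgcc
Sod1: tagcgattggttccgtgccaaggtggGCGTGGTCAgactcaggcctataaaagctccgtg
On either strand the core was present in 3 of the 11 windows of the 9 genes, beside 12.4% of all 32851 windows. A match is thus common by its letters alone. These 3 genes had log2 fold changes of 0.07, -0.05 and -0.11, and none of them passed in edgeR.

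Prdx1 and Prdx2 encode cytosolic peroxiredoxins that reduce hydrogen peroxide through a reactive cysteine; Prdx2 is among the most abundant proteins of red cells. Prdx1 was at 314, 333 and 335 CPM under the Hmga2 label, against 318, 318 and 378 CPM in vector libraries. Its groups overlapped (adjusted p = 0.954, edgeR), and the log2 fold change of -0.05 became 0.05 without vector replicate 3. Prdx2 was at 295, 333 and 289.8 CPM under the Hmga2 label, against 323, 379.7 and 379 CPM in vector libraries. Hmga2 replicate 2 lay above vector replicate 1, so the groups overlapped at that point. With a log2 fold change of -0.24 (standard error 0.10, interval -0.47 to 0.00) it did not pass over all genes (adjusted p = 0.855, edgeR; adjusted p = 0.642, DESeq2). It was negative in all 14 alternatives run, from -0.31 to -0.11. Of the 12 erythroid markers 9 were lower under the Hmga2 label, with overlapping sums. By replicate, their sum was 1421, 1139 and 1714 CPM under the Hmga2 label and 1771, 2203 and 1671 CPM in vector libraries. Prdx2 and this sum were both highest in vector replicate 2. Hmga2 replicate 2 had the highest Prdx2 of its group and the lowest sum. Vector replicate 3 had the lowest vector sum, with a Prdx2 level close to the highest. One of these markers, Klf1, an erythroid transcription factor, averaged 44.5 ± 8.73 CPM under the Hmga2 label and 78.5 ± 21.3 CPM in vector libraries (SD, n = 3 each; adjusted p = 0.855, edgeR; adjusted p = 0.0348, DESeq2), with groups apart. The part of erythroid cells in the Prdx2 value was not tested. In bulk LSK cells, fewer cells of a type and less RNA per cell cannot be told apart. Prdx2 overlaps Junb by 351 bases and Rnaseh2a by 181 bases on the opposite strand, and Sod1 overlaps Scaf4 by 650 bases; no source used here says whether the counting used strand, so reads there cannot be assigned.

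Sod1, the copper and zinc superoxide dismutase of the cytosol, was at 299, 380.4 and 324 CPM under the Hmga2 label, against 332, 346 and 404 CPM in vector libraries. The ranges overlapped, with a log2 fold change of -0.11 and an interval from -0.39 to 0.18 (adjusted p = 0.911, edgeR). Sod2, the manganese enzyme of the mitochondrial matrix, was at 86.4, 78.2 and 84.1 CPM under the Hmga2 label, against 89.2, 97.9 and 99.1 CPM in vector libraries. All 3 libraries labelled Hmga2 lay below all vector libraries. With a log2 fold change of -0.20 (standard error 0.08, interval -0.39 to -0.02) it did not pass over all genes (adjusted p = 0.855, edgeR; adjusted p = 0.718, DESeq2). It kept its sign in all 14 alternatives, from -0.29 to -0.17. Within the immunoglobulin-rich libraries the difference in log2 CPM was -0.27 for Hmga2 replicate 2 minus vector replicates 1 and 3, and within the others it was -0.20 for Hmga2 replicates 1 and 3 minus vector replicate 2. Each of these has 1 library on a side, so the part of immunoglobulin-rich libraries was not tested.

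Catalase, which breaks down hydrogen peroxide in peroxisomes, was at 135, 120.4 and 114 CPM under the Hmga2 label, against 111, 116 and 116 CPM in vector libraries. Cat in Hmga2 replicate 3 fell among the vector values, and the log2 fold change of 0.11 had an interval from -0.09 to 0.30 (adjusted p = 0.865, edgeR). Gpx1, the selenium-dependent glutathione peroxidase of cytosol and mitochondria, was at 751, 910.3 and 768 CPM under the Hmga2 label, against 673, 862 and 1085 CPM in vector libraries. The vector libraries held both the lowest and the highest value of Gpx1, and its log2 fold change of -0.11 had an interval from -0.53 to 0.32 (adjusted p = 0.943, edgeR). Leaving out vector replicate 3 gave 0.09, and leaving out vector replicate 1 gave -0.27.

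Vector replicate 3 had the highest level of 5 of the 10 genes, namely Txn1, Prdx1, Sod1, Sod2 and Gpx1, and the lowest level of Txnip. In log2 CPM minus the mean of each gene it stood at 0.25 for Txn1, 0.19 for Prdx1, 0.22 for Sod1 and 0.38 for Gpx1, and at -0.58 for Txnip. It was also the library with the lowest total count, 24818011, and the part of depth in these values was not tested. Hmga2 replicate 1 was lowest for Txn1, Prdx1 and Sod1. It had the highest total count, 35471806.

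**Figure D4:**
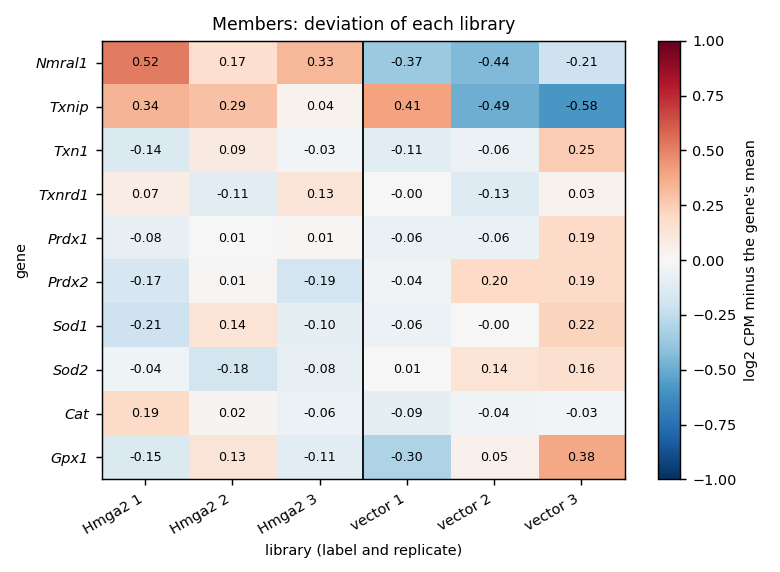
Log2 CPM of the 10 genes in each library minus the mean of that gene over the 6 libraries; red is above and blue below, with libraries labelled Hmga2 left of the line. Nmral1 is positive in all 3 libraries labelled Hmga2 and negative in all 3 vector libraries, while Txn1, Prdx1, Sod1 and Gpx1 peak in vector replicate 3 (0.19 to 0.38).

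Levels between genes were compared as CPM per kb of annotated exon. Gpx1 stood first, at 562 ± 60.7 in the libraries labelled Hmga2 and 606 ± 143 in vector libraries (SD, n = 3 each), and its range over the 6 libraries was apart from that of every other gene. Txn1 followed at 255 ± 20.5 CPM per kb under the Hmga2 label and 266 ± 37.0 in vector libraries, again apart from the next. Txnip, Prdx1, Prdx2 and Sod1 came next, with overlapping ranges between neighbours and means over all libraries from 126 down to 87.5 CPM per kb. Cat averaged 45.4, Txnrd1 25.0, Nmral1 18.7 and Sod2 8.91 CPM per kb over all libraries, and among these only Txnrd1 and Nmral1 overlapped. The order rests on the length used: with the median length of coding transcripts, Sod1 and Prdx1 came right after Gpx1, at 542 and 503 CPM per kb, and Txnip came after Prdx2, while Gpx1 was again first and Sod2 last.

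The wider redox system was read through lists of related genes. Over 8 lists with 109 genes, 103 were tested; 32 had a higher and 71 a lower estimate under the Hmga2 label, beside 50.4% of all genes higher and 49.6% lower. In edgeR 0 passed, and 11 of the 103 had an unadjusted p under 0.05, beside 5.59% of all genes. DESeq2 called 2, Glrx5 and Mthfd2, both lower, beside 0.424% of all genes. On simulated data DESeq2 found more of the changed genes than edgeR but also made more false calls. The groups were apart with the libraries labelled Hmga2 lower for 20 genes and higher for 1, beside 5.88% and 5.28% of all genes. Genes of a list vary together between libraries, so these counts are not separate observations.

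Of 15 other peroxiredoxin, thioredoxin and glutaredoxin genes, all 15 had a lower estimate (median log2 fold change -0.17, range -0.44 to 0.00). Among them 5 had groups apart, all lower, beside 5.88% of all genes. Glrx5, a mitochondrial glutaredoxin needed for iron-sulphur clusters and, in zebrafish and human, for haem synthesis, was at 58.6, 67.4 and 62.2 CPM under the Hmga2 label, against 79.6, 90.3 and 84.8 CPM in vector libraries. All 3 libraries under the Hmga2 label lay below the vector libraries, at a log2 fold change of -0.44 (standard error 0.09; adjusted p = 0.855, edgeR; adjusted p = 0.00992, DESeq2). Txnrd2, the mitochondrial thioredoxin reductase, averaged 31.6 ± 2.44 CPM under the Hmga2 label and 39.7 ± 3.67 CPM in vector libraries (SD, n = 3 each). Its substrate Txn2, mitochondrial thioredoxin, averaged 145 ± 1.94 and 172 ± 16.7 CPM in the same order. In Txn2 and Txnrd2, as in Sod2, every library labelled Hmga2 lay below every vector library, and none passed in edgeR (adjusted p = 0.855 each).

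Of 20 genes of glutathione synthesis and use, 15 had a lower and 5 a higher estimate (median -0.17). Groups were apart for 7, all lower, beside 5.88% of all genes. Gsr, the reductase that recharges glutathione, was at 66.3, 52.8 and 58.3 CPM under the Hmga2 label, against 78.7, 102 and 68.8 CPM in vector libraries. Gstm1, a glutathione transferase, was at 91.2, 95.4 and 82.7 CPM, against 125, 187 and 107 CPM in vector libraries. Both were highest in vector replicate 2, which also had the highest sum of granulocyte markers, 9416 CPM, and of erythroid markers, 2203 CPM. The part of these cell types in the levels of Gsr and Gstm1 was not tested. Gstm5, of the same family as Gstm1, averaged 25.6 ± 4.33 CPM under the Hmga2 label and 32.8 ± 4.34 CPM in vector libraries (SD, n = 3 each); reads of such close relatives may be split by the counting.

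Of 15 genes listed for NADPH supply, not all of which form NADPH themselves, 13 had a lower estimate (median -0.19). In 5 the groups were apart, all lower, beside 5.88% of all genes. Mthfd2, a mitochondrial enzyme of folate metabolism, was at 43.3, 32.9 and 45.0 CPM under the Hmga2 label, against 57.2, 58.4 and 60.8 CPM in vector libraries (log2 fold change -0.54, standard error 0.13; adjusted p = 0.855, edgeR; adjusted p = 0.0489, DESeq2). Its cytosolic counterpart Mthfd1 averaged 213 ± 25.7 and 268 ± 24.9 CPM (labelled Hmga2, then vector; SD, n = 3 each). Transaldolase (Taldo1), of the pentose phosphate pathway, had groups apart and a log2 fold change of -0.24 (adjusted p = 0.855, edgeR). Pgd, an NADPH-forming enzyme of the same pathway, averaged 169 ± 7.98 CPM under the Hmga2 label and 199 ± 20.4 CPM in vector libraries.

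Among 21 regulators and targets of NRF2, 15 had a lower and 6 a higher estimate (median -0.10). Of these 21, 4 had groups apart, all lower, beside 5.88% of all genes. The list shares Taldo1, Pgd and other genes with the lists above. Ferritin light chain, Ftl1, averaged 646 ± 82.6 CPM under the Hmga2 label and 777 ± 52.2 CPM in vector libraries (SD, n = 3 each; adjusted p = 0.855, edgeR). The factor itself, Nfe2l2, and its inhibitor Keap1 had log2 fold changes of 0.01 and 0.02. Bach1, another regulator, had the highest estimate of the list, 0.31, with overlapping groups (adjusted p = 0.855, edgeR). Hmox1, the inducible haem oxygenase, ranged from 3.99 to 26.5 CPM under the Hmga2 label and from 5.42 to 21.1 CPM in vector libraries, a wide spread in both groups.

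FoxO and stress kinase genes leaned the other way: 10 of 12 had a higher estimate (median 0.17). The groups were apart for 0 of them, beside 11.2% of all genes. An unadjusted p under 0.05 in edgeR was reached by 0, beside 5.59% of all genes. Atm, the DNA damage kinase, averaged 40.8 ± 9.01 CPM under the Hmga2 label and 31.0 ± 6.51 CPM in vector libraries, Foxo4 52.5 ± 4.94 and 46.7 ± 1.52 CPM, and the sestrin gene Sesn1 74.1 ± 5.05 and 63.8 ± 10.3 CPM (SD, n = 3 each; adjusted p = 0.855 each, edgeR). Of 12 genes for superoxide and peroxide sources, 9 were tested and 7 had a lower estimate (median -0.10). Groups were apart for 1 of the 9, Xdh, which was lower, beside 5.88% of all genes. Xdh, xanthine dehydrogenase, averaged 7.53 ± 2.52 CPM under the Hmga2 label and 11.5 ± 0.290 CPM in vector libraries, and Cybb, the catalytic subunit of the phagocyte oxidase, 15.4 ± 7.51 and 21.04 ± 2.59 CPM. Ncf1, an oxidase subunit of the cytosol, averaged 84.9 ± 21.6 and 96.8 ± 27.7 CPM.

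Gpx1 and Txnrd1 contain selenocysteine and Sod1 needs copper, and 10 of 11 genes for these supplies were tested. Estimates were lower for 9 (median -0.10) and higher for 1, Secisbp2, which encodes the protein that recruits the selenocysteine machinery to messenger RNA. Secisbp2 was at 54.6, 49.6 and 49.1 CPM under the Hmga2 label, against 46.1, 44.2 and 45.4 CPM in vector libraries, with groups apart (adjusted p = 0.855, edgeR). Sepsecs, the enzyme that forms selenocysteine on its transfer RNA, averaged 23.9 ± 0.980 and 26.1 ± 1.48 CPM, and the copper importer Slc31a1 43.1 ± 2.96 and 47.9 ± 3.80 CPM (labelled Hmga2, then vector; SD, n = 3 each). The extracellular dismutase Sod3 had at most 5 reads in any library and was not tested.

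**Figure D5:**
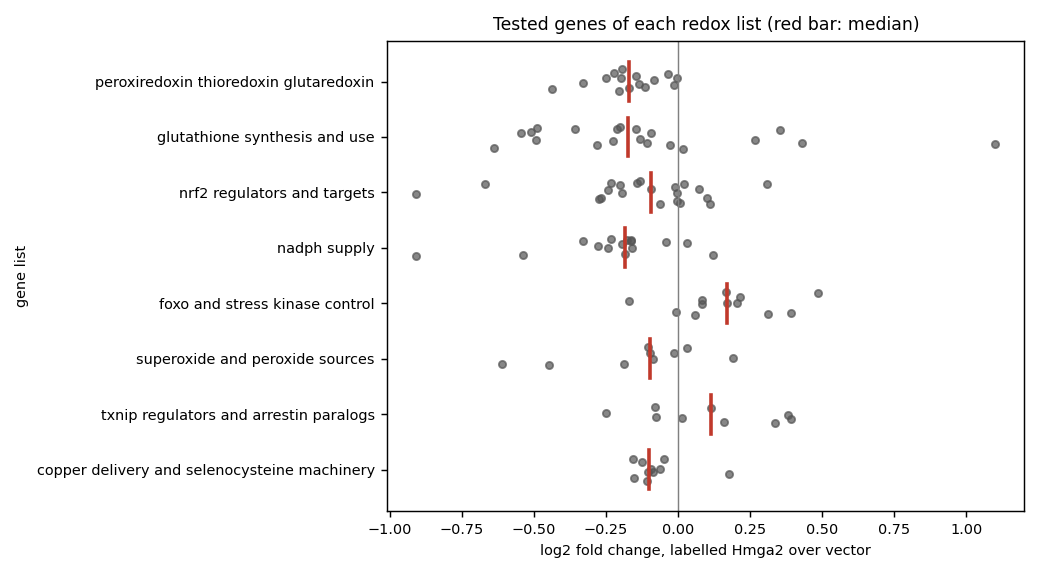
Log2 fold change, labelled Hmga2 over vector, of every tested gene in 8 redox lists; points are genes with random vertical offset and red bars are list medians. Medians are negative for 6 lists, from -0.19 to -0.10, and positive for the FoxO (0.17) and Txnip (0.11) lists; 0 genes passed in edgeR.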

How the data were processed

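RNA of 6 LSK samples was sequenced. The authors deposited estimated counts per gene symbol, made with the tools below and judged from the values: none negative and 67.3% to 70.1% of values above 0 whole within 1e-06. Per the submitters' processing notes, Partek 3.0, Bowtie2 and mm10 were used; no source used here names the counter, annotation or strand setting. Groups and replicate numbers came from sample titles. The counts were rounded to whole numbers, and edgeR 4.0.16 (R 4.3.3) gave the main test (filterByExpr, TMM, quasi-likelihood F test on group, Benjamini-Hochberg over 16739 genes, threshold 0.05); log2 CPM used a prior count of 2. DESeq2 1.42.0 was the other tool. A floor of 3 reads equals 0.0846 to 0.121 CPM, for counting error only. Replicate pairs differed beyond counting noise (chi-square over its degrees of freedom, 24.8 to 56.9); p-values cover the spread between these samples. Both tools were first tested on simulated data. There DESeq2 found more of the changed genes than edgeR but also made more false calls, and both tools missed some changed genes. The DESeq2 calls here are given beside those of edgeR and are less certain. Positions and exon lengths come from GENCODE M21 on mm10, where 97.3% of tested symbols were found.

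The members, lists and tests were chosen with earlier results of these data known. Named were the members; up to 3 genes per list with the smallest unadjusted p; the 5 genes most like Nmral1; 2 neighbours per side; and Hmga2. Hmox1, Nfe2l2, Keap1, Bach1, Klf1, Kit, Cd34, Sod3, Mlxipl, Arrdc1, Arrdc2 and Arrdc5, and the motifs, were picked with their values in view. Alternatives tried were leaving out each library, a block for the replicate number, other size factors, no count filter, a robust fit, immunoglobulin genes removed, and terms for immunoglobulin-rich and Y-rich libraries; the Y-linked limit of 50 CPM was added after seeing the data, because all libraries exceeded the planned 5 CPM.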

Additional observations from a re-analysis of the deposited data

How the results depend on the processing

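The count of 0 called genes held under 12 of 14 alternatives, with DESeq2 among the 14 and edgeR used in the rest. The count was 1 in edgeR without the count filter and 71 in DESeq2, of which 9 were higher and 62 lower. For the 9 genes listed by function it was 0 in all 14, and for the redox lists it was 2 in DESeq2 and 0 in the other 13. Nmral1 was chosen on this contrast and its groups are apart, so a kept sign is no support for it. Its log2 fold change lay between 0.59 and 0.76 with any 1 library left out and was 0.51 with a term for Y-linked transcripts above 50 CPM. That term leaves Hmga2 replicate 2 alone against the vector libraries. With it, signs turned for Txn1 (0.05), Txnrd1 (-0.078), Sod1 (0.078) and Gpx1 (0.06). Without vector replicate 3, they turned for Txn1 (0.064), Prdx1 (0.050) and Gpx1 (0.085); over all libraries left out in turn, Txn1 lay between -0.131 and 0.064, Prdx1 between -0.089 and 0.050 and Gpx1 between -0.266 and 0.085. The planned term at 5 CPM could not be fitted. The Txnip to Txn1 log2 ratio difference lay between 0.21 and 0.89 with 1 library left out. Medians of all 8 lists kept their sign in all 14 alternatives, but some came close to 0. The NRF2 list was at -0.011 without vector replicate 1, and the superoxide and peroxide sources at -0.011 without vector replicate 3. The copper and selenocysteine list was at -0.013 with the term for Y-linked transcripts above 50 CPM. The causes of these changes were not tested.

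With the replicate number as a block, edgeR called 0 genes and the log2 fold change of Nmral1 was 0.68. Deviations of same-numbered libraries from their group means correlated at -0.21, -0.50 and -0.26, and those of other pairs at -0.11 to 0.34. No pairing by number was seen. These values cannot exclude one, because the deviations within each group sum to 0. With 3 libraries a group, none of the 9 genes passed the adjustment over all genes, although the unadjusted intervals of Prdx2 and Sod2 lay below 0; a p that misses the threshold does not show that levels were equal.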
